A study of Mus musculus with 12 samples.

Results

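Aquaporins are membrane channels, and 8 of their genes are described here in mouse colon: Aqp1, Aqp3, Aqp4, Aqp5, Aqp7, Aqp8, Aqp9 and Aqp11. They were chosen by symbol from the 24054 genes in the read count files. Their reads in the 3 groups were known when the symbols were chosen, so the fold changes and p-values below place each gene in the fit over all genes and are no independent support for a choice. No read count separates the 8 genes from the rest of the family. Aqp12 with 35 reads over all libraries and Aqp2 with 28 were not selected, whereas Aqp3 with 13 and Aqp7 with 19 were. Mip and Aqp6, the remaining 2 family symbols in the files, had 0 reads.

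RNA was compared in 3 groups of 4 libraries. The BTPRZ-T libraries come from engrafted tumours of the genotype BrafV600E;Tgfbr2-/-;Rnf43-/-/Znrf3-/-;p16 Ink4a-/-. The BT-T libraries come from engrafted tumours of the genotype BrafV600E;Tgfbr2-/-, and the N libraries from wild type normal colon next to tumours. BrafV600E is an activated kinase, Tgfbr2 a receptor for TGF-beta, Rnf43 and Znrf3 are ubiquitin ligases that remove WNT receptors, and p16 Ink4a is a cell cycle inhibitor. The strain of all 12 libraries is NSG, an immunodeficient mouse without mature lymphocytes that retains neutrophils and macrophages, so host stroma and vessels can be part of each tumour sample. Both tumour groups carry the Braf allele and the Tgfbr2 deletion, and no group separates these 2 from each other or from engraftment. How many organoid lines or animals stand behind a group is not stated in the labels, so p-values measure the spread between these libraries, which may be technical.

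Water crosses the colonic epithelium after salt, and water channels in the apical and basolateral membranes set how easily it does so. Aqp1, Aqp4, Aqp5 and Aqp8 pass mainly water, and Aqp8 also passes ammonia and hydrogen peroxide. Aqp3, Aqp7 and Aqp9 are aquaglyceroporins, which pass glycerol as well. Aqp11 is an unorthodox member that resides inside cells. In the mouse colon, Aqp8 marks absorptive colonocytes near the lumen, Aqp4 is known from the basolateral membrane of the surface epithelium, and Aqp1 from vessels. Aqp5 is the channel of salivary, lacrimal and gastric gland cells.

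Levels are given as CPM, the reads of a gene scaled to a common library total after TMM scaling, which allows for differences in depth and composition between libraries. A library held 15.7M to 26.1M gene reads. One N library stands apart: replicate 2 had 10.99% ribosomal protein reads where replicates 1, 3 and 4 had 1.59 to 1.94%. It held reads of 14175 genes, and the other N libraries of 16152 to 16432. BTPRZ-T replicates 1 and 4, with 14697 and 13450 genes, were the other libraries with the fewest genes. Several results are therefore also given without some or all of these 3 libraries. The epithelial marker Epcam stood at 1116 to 2378 CPM in BTPRZ-T, at 949 to 1244 CPM in BT-T and at 1175 to 1671 CPM in N. All 10 epithelial markers examined had reads in each group, so every group held epithelial RNA. In RNA of whole tissue, fewer cells of a type and less RNA per cell cannot be told apart.

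The genes lie apart in the genome except for 2 clusters (GRCm38, GENCODE M21). Aqp8 lies on the plus strand at chr7:123462291-123468004 with 6 exons, and Aqp11 on the minus strand at chr7:97724006-97738289. Aqp1 lies on the plus strand at chr6:55336432-55348555. Aqp5, at chr15:99590782-99594829 on the plus strand, stands between Aqp2, 6.2 kb away, and Aqp6, 6.6 kb away. Aqp7 and Aqp3 share the minus strand of chromosome 4 with 44.6 kb between them. Aqp9 lies at chr9:71110659-71168682 on the minus strand. No exon of the 8 genes overlaps an exon of another gene on either strand.

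Promoter sequence is shown for 2 genes that differ in behaviour below. Aqp8 was lower in both tumour groups, and Aqp1 passed the test in no comparison. The sequences are from RefSeq on GRCm38.p6, 5′ to 3′ on the plus strand, ending at or before the first exon. They cover chr7:123462044-123462290 for Aqp8 and chr6:55336049-55336298 for Aqp1. Capitals mark the motif letters found, GGAATG (TEAD) in Aqp8, and GGGCGG (SP/KLF) and CAGACA (SMAD) in Aqp1.
Aqp8: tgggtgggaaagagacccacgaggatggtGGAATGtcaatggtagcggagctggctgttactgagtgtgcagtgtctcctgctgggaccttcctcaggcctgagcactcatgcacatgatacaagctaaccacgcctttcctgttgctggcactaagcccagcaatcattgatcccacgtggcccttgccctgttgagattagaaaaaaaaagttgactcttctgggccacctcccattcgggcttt
Aqp1: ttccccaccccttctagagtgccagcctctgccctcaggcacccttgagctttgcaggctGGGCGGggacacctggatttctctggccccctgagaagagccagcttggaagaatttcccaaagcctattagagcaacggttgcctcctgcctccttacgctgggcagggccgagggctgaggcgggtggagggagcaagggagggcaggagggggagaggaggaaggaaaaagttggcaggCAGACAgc
Both strands were searched for 10 motifs. Of 32851 RefSeq promoter windows, each searched over its first 250 bases, 12.6% hold GGAATG, 32.7% hold GGGCGG and 17.1% hold CAGACA. Each match is therefore common. Neither stretch holds the other 7 motifs. For the box bound by TBP the letters were TATAAA, for CDX factors TTTATG, for HNF4 factors CAAAGTCCA and for AP-1 factors TGANTCA. For TCF/LEF factors they were CTTTGAT, for CREB factors TGACGTCA and for GATA factors AGATAA. The Aqp8 stretch has 53.0% G and C bases and the Aqp1 stretch 62.0%, against a median of 52.4% over the first 250 bases of all windows.

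The aquaporin RNA of tumours was smaller in sum and different in make-up from that of normal colon. To compare genes with each other, CPM were divided by the mean length of the protein-coding transcripts of a gene in kilobases. Summed over all family genes, this level was 100.4 to 182 CPM per kb in BTPRZ-T and 105 to 142 CPM per kb in BT-T, against 495 to 972 CPM per kb in N. The lowest N value is replicate 2, and the other 3 N libraries began at 744. In N, Aqp4 averaged 471 ± 105 CPM per kb (SD, n = 4), Aqp8 224 ± 170, Aqp1 64.4 ± 18.5, Aqp11 5.19 ± 2.02 and Aqp5 0.140 ± 0.0558. Aqp4 and Aqp8 overlapped within their spread in N, while Aqp1 lay below Aqp4 in all 4 libraries.

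Aqp4 and Aqp8 together made up 14.6 to 35.5% of the summed level in BTPRZ-T and 51.4 to 73.1% in BT-T, against 80.2 to 93.9% in N. Aqp1 and Aqp5 together made up 60.6 to 83.3% in BTPRZ-T and 24.7 to 45.9% in BT-T, against 5.50 to 18.6% in N. With these lengths, the ranges of the 3 groups did not overlap for either pair. Between them the pairs make up nearly all of the sum in each library, so their separations are not separate results. The pair of Aqp4 and Aqp8 holds the genes called lower in these same libraries, so its separation is no independent support. In BTPRZ-T, Aqp1 had a mean share of 43.1% and Aqp5 of 29.5%, although in replicate 1 Aqp5 led with 45.8% before Aqp1 with 23.7%. In BT-T, Aqp1 averaged 34.9% and Aqp4 34.5%. In N, Aqp4 averaged 63.4% and Aqp8 26.3%, although in replicate 4 Aqp8 had 46.8% and Aqp4 46.0%. These orders, and the separation of BT-T from N for the pairs, rest on the length used. Aqp4 has 9 protein-coding transcripts with a mean of 1604 bases and a longest of 5054 bases. With the longest transcript of each gene, the mean share in N was 37.4% for Aqp4 and 43.5% for Aqp8, and in BT-T it was 46.7% for Aqp1 and 15.3% for Aqp4.

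**Figure D1:**
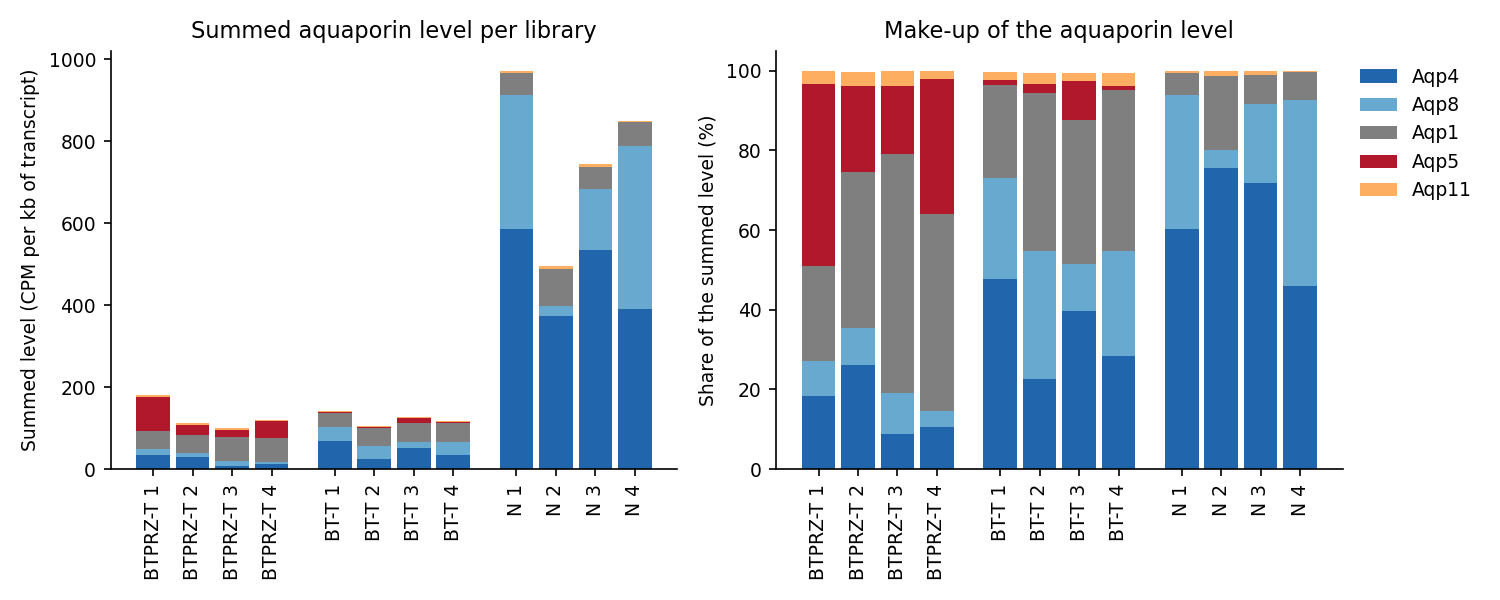
Summed aquaporin level of each library in CPM per kb of transcript (left) and the share of each gene in that sum in percent (right), stacked by gene, for 4 BTPRZ-T, 4 BT-T and 4 N libraries. The tumour sums lie at 100.4 to 182 and the N sums at 495 to 972, and the blue Aqp4 and Aqp8 shares shrink beside the grey Aqp1 and red Aqp5 shares in tumours.

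Among all 14208 tested genes with a length, Aqp4 ranked 193 and Aqp8 440 by mean level per kb in N. In BT-T they ranked 2138 and 3314, and in BTPRZ-T 4604 and 7058. Aqp1 had rank 1971 in BTPRZ-T, 2231 in BT-T and 1757 in N. Aqp5 stood at rank 2492 in BTPRZ-T and 9735 in BT-T, against 13767 in N.

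Of the 8 genes, 5 had enough reads to be tested, namely Aqp1, Aqp4, Aqp5, Aqp8 and Aqp11. Genes were called changed at a Benjamini-Hochberg adjusted p under 0.05 in edgeR's quasi-likelihood test, adjusted over all 14860 genes tested. In BTPRZ-T against N, 1 aquaporin was higher (Aqp5) and 2 were lower (Aqp4 and Aqp8). Of all genes tested in that comparison, 11.8% were called, 5.66% higher and 6.18% lower. In BT-T against N the same 3 genes were called in the same directions, where 8.57% of all genes were called, 5.67% higher and 2.90% lower. In BTPRZ-T against BT-T none was called at this threshold, where 0.754% of all genes were called and 2564 had an unadjusted p under 0.05, Aqp4, Aqp5 and Aqp8 among them. For that comparison DESeq2 called 1 aquaporin, Aqp5, and so did voom. The median log2 fold change of the 5 genes was -0.36 in BTPRZ-T against N, where that of all genes was -0.10. It was -0.76 in BT-T against N, where that of all genes was also -0.10, and 0.29 in BTPRZ-T against BT-T, where that of all genes was -0.03. The comparisons share the N libraries, so their results are not independent of each other.

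**Figure D2:**
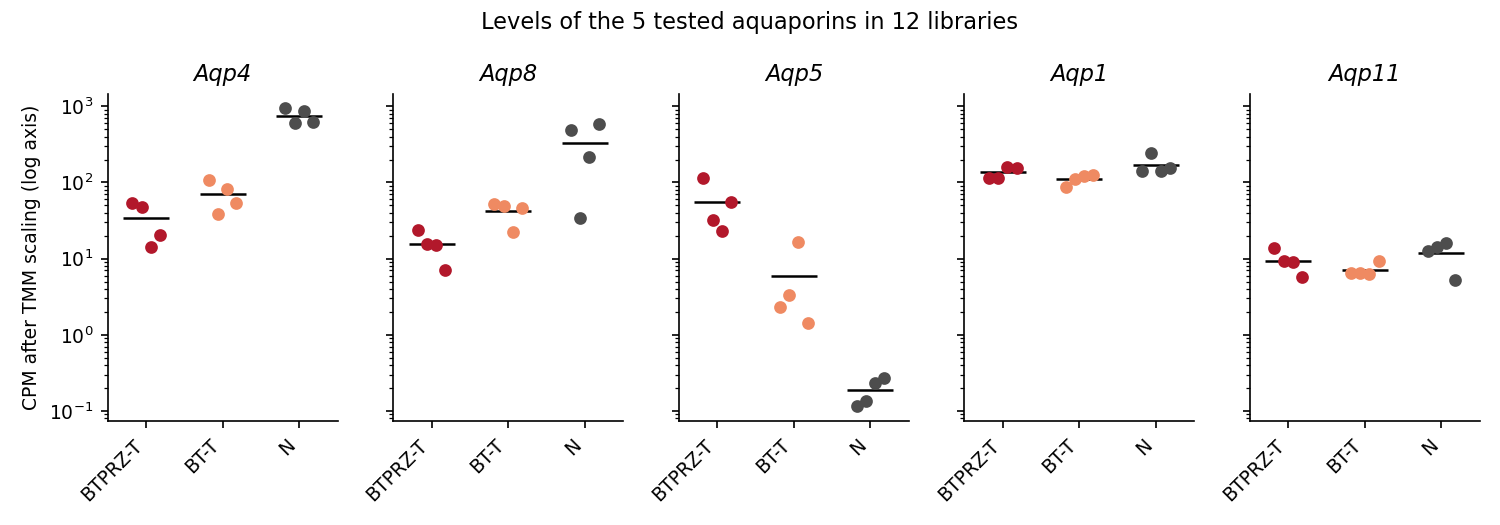
Level of each tested aquaporin in CPM after TMM scaling on a log axis, with 1 point per library and a line at the mean of the 4 libraries of a group. Aqp4 and Aqp8 are low in BTPRZ-T and BT-T, Aqp5 is high in BTPRZ-T at 23.1 to 113 CPM and near 0 in N, and Aqp1 lies between 87.5 and 241 CPM in all 12 libraries.

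Aqp4, a water channel without glycerol transport, had the highest aquaporin read count of normal colon. It stood at 53.6, 47.0, 14.1 and 20.3 CPM in BTPRZ-T replicates 1 to 4. It stood at 108, 38.2, 81.2 and 54.1 CPM in BT-T replicates 1 to 4, against 938, 599, 856 and 626 CPM in N replicates 1 to 4. Every tumour library lay below every N library, and the 2 tumour groups overlapped. The gene was 22.4-fold lower in BTPRZ-T than in N (log2 fold change -4.48 ± 0.50 (SE), adjusted p = 0.000342). It was 10.7-fold lower in BT-T than in N (-3.42 ± 0.48, adjusted p = 0.00129). Both calls held when any 1 library was left out, with log2 fold changes of -4.80 to -4.23 and -3.71 to -3.22. Between the tumour groups the log2 fold change was -1.06 ± 0.44 for BTPRZ-T over BT-T, with an adjusted p of 0.251.

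Aqp4 is also carried by glial cells, so glial markers are given beside it. The 8 enteric glia markers summed to 135 to 420.0 CPM in BTPRZ-T and 242 to 351 CPM in BT-T, against 58.7 to 308 CPM in N, with none of the 8 at 0 in a group. Most of that sum is Erbb3, a receptor that epithelium also carries, at a mean of 234 CPM in BTPRZ-T and 280.2 CPM in BT-T, against 197 CPM in N. The other 7 markers summed to 7.38 to 36.4 CPM in BTPRZ-T and 25.9 to 41.8 CPM in BT-T, against 26.7 to 38.3 CPM in N. The list's median log2 fold change was -1.24 in BTPRZ-T and -0.05 in BT-T. In BT-T none of the glia markers was called against N, and in BTPRZ-T only Sox10 was, at -4.13 ± 1.16 (adjusted p = 0.0367). Per 100 Epcam reads, Aqp4 had 0.593 to 2.55 reads in BTPRZ-T and 4.03 to 8.72 in BT-T, against 35.9 to 72.9 in N. Set against Epcam, the 3 groups did not overlap, whereas in CPM the tumour groups did. Epcam itself averaged 1862 CPM in BTPRZ-T and 1077 CPM in BT-T. The epithelial marker Cdh1 averaged 1351 CPM in BTPRZ-T and 1487 CPM in BT-T. The separation of the tumour groups therefore rests on the choice of Epcam.

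Aqp8, the apical channel of absorptive colonocytes, was the other member that fell. It stood at 23.7, 15.6, 15.1 and 7.16 CPM in BTPRZ-T replicates 1 to 4. It stood at 52.9, 49.6, 22.1 and 46.6 CPM in BT-T replicates 1 to 4, against 481, 34.2, 217 and 583 CPM in N replicates 1 to 4. N replicate 2 lay inside the BT-T range and below the other N libraries. All BTPRZ-T libraries lay below all N libraries. Aqp8 was 21.4-fold lower in BTPRZ-T than in N (log2 fold change -4.42 ± 0.73, adjusted p = 0.00249) and 7.68-fold lower in BT-T than in N (-2.94 ± 0.68, adjusted p = 0.0195).

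The fall of Aqp8 in BT-T lost its call under several settings, at log2 fold changes of similar size. It was -2.70 without N replicate 1 (adjusted p = 0.0519). Without BT-T replicate 2 it was -3.02 (adjusted p = 0.0617), without replicate 3 -2.73 (0.0689) and without replicate 4 -2.98 (0.0574). With voom it was -2.39 (adjusted p = 0.0588). Without N replicate 2, the log2 fold change was -3.32 ± 0.44 (adjusted p = 0.000727) in BT-T and -4.80 ± 0.46 (adjusted p = 6.95e-05) in BTPRZ-T. Between the tumour groups Aqp8 was at -1.48 ± 0.65 (adjusted p = 0.273) for BTPRZ-T over BT-T. That difference passed the threshold without N replicate 2 (adjusted p = 0.0271). Per 100 Epcam reads, Aqp8 had 0.637 to 1.13 reads in BTPRZ-T and 1.97 to 5.23 in BT-T, against 2.05 to 41.5 in N.

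Other absorptive colonocyte markers are given beside Aqp8. Of 12 such markers tested, Aqp8 left out, 7 fell and none rose in BTPRZ-T against N, and 8 fell and none rose in BT-T against N. Between the tumour groups none was called, and their median log2 fold change was 0.33 for BTPRZ-T over BT-T, where Aqp8 was at -1.48. Cyp2c55 fell by 5.69 on the log2 scale in BTPRZ-T (SE 0.62, adjusted p = 0.000299) and by 4.20 in BT-T (SE 0.57, adjusted p = 0.00113). The intestinal lipid carrier Fabp2 fell by 4.61 on that scale in BTPRZ-T (SE 0.68, adjusted p = 0.00143) and was at -7.32 ± 0.78 in BT-T (adjusted p = 0.000352). The carbonic anhydrase Car1 was at 149 to 197 CPM in BTPRZ-T and 223 to 1219 CPM in BT-T, against 1152 to 3244 CPM in N. The summed level of the markers without Aqp8 was 2393 to 8099 CPM in BTPRZ-T and 3311 to 6306 CPM in BT-T, against 10621 to 12647 CPM in N. Much of that sum in tumours is Ceacam1, which was not lower there. It averaged 3052 CPM in BTPRZ-T and 2367 CPM in BT-T, against 2252 CPM in N. Its log2 fold change was 0.44 ± 0.59 in BTPRZ-T and 0.07 ± 0.59 in BT-T, without a call. The part of these markers in the fall of Aqp8 was not tested.

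Aqp5, the water channel of secretory gland cells, went the opposite way. It stood at 113, 32.6, 23.1 and 54.9 CPM in BTPRZ-T replicates 1 to 4. It stood at 2.30, 3.36, 16.8 and 1.42 CPM in BT-T replicates 1 to 4, against 0.115, 0.135, 0.236 and 0.270 CPM in N replicates 1 to 4. The N values are 2, 2, 4 and 4 reads. The 3 groups did not overlap, and BT-T replicate 3 lay closest to BTPRZ-T. Aqp5 was 287-fold higher in BTPRZ-T than in N (log2 fold change 8.16 ± 1.01, adjusted p = 0.000559) and 30.7-fold higher in BT-T than in N (4.94 ± 0.93, adjusted p = 0.00602). Without BT-T replicate 3, the log2 fold change in BT-T against N was 3.60 ± 0.63 (adjusted p = 0.00873), and without any 1 of the N libraries it was 4.76 to 5.14.

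Between the tumour groups, Aqp5 averaged 55.8 ± 40.2 CPM in BTPRZ-T and 5.96 ± 7.25 CPM in BT-T (SD, n = 4 each). The log2 fold change was 3.22 ± 0.75 with an adjusted p of 0.0734, so the difference missed the threshold although no libraries overlapped. Without BT-T replicate 3 it was 4.56 ± 0.61 (adjusted p = 0.0107). Without N replicate 2, which enters through the shared estimate of the spread, the adjusted p was 0.0158. Without the 3 libraries with the fewest genes it was 2.21 ± 0.77 (adjusted p = 0.0610).

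Gastric genes were read beside Aqp5, since stomach glands carry this channel. Of 7 tested gastric genes, 4 rose in BTPRZ-T against N and 1 rose in BT-T against N. Gkn1, a gastrokine of the stomach surface, averaged 23.8 ± 28.4 CPM in BTPRZ-T and 1.07 ± 1.92 CPM in BT-T, against 0.0655 ± 0.0554 CPM in N. Its log2 fold change was 8.42 ± 1.70 in BTPRZ-T (adjusted p = 0.00768) and 3.96 ± 1.61 in BT-T (adjusted p = 0.155). Psca, a prostate and stomach surface antigen, rose in both, by 4.35 ± 0.77 in BTPRZ-T (adjusted p = 0.00352) and by 4.05 ± 0.76 in BT-T (adjusted p = 0.00607). Tff2, the trefoil peptide of gastric gland mucus, had 13 reads in BTPRZ-T, all in replicate 2, and 2 reads in BT-T, against 0 in N. Muc6 went the other way without a call, at -0.65 ± 1.05 in BTPRZ-T (adjusted p = 0.775) and -2.94 ± 1.14 in BT-T (adjusted p = 0.138). The summed level of the 13 genes was 108 to 244 CPM in BTPRZ-T and 101 to 131 CPM in BT-T, against 34.9 to 128 CPM in N. Much of that sum is Ctse, which was not called. It averaged 77.4 CPM in BTPRZ-T and 107 CPM in BT-T, against 61.9 CPM in N. The part of the gastric genes in the level of Aqp5 was not tested.

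Most genomic neighbours of Aqp5 were not called. Of the 4 nearest tested genes, 2 on each side, Faim2 at 62.6 kb was called in BTPRZ-T against N (2.93 ± 0.80, adjusted p = 0.0320), and Bcdin3d, Racgap1 and Smarcd1 were not. None was called in BT-T against N. The 2 tested genes below Aqp8, Lcmt1 at 31.9 kb and Arhgap17 at 92.4 kb, were not called in any of the 3 comparisons. On the other side, 3100003L05Rik at 1157.7 kb was lower in BTPRZ-T (-7.70 ± 1.36, adjusted p = 0.00657) and in BT-T (-5.18 ± 1.09, adjusted p = 0.0184) against N, and Kdm8 at 1976.7 kb was not called.

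**Figure D3:**
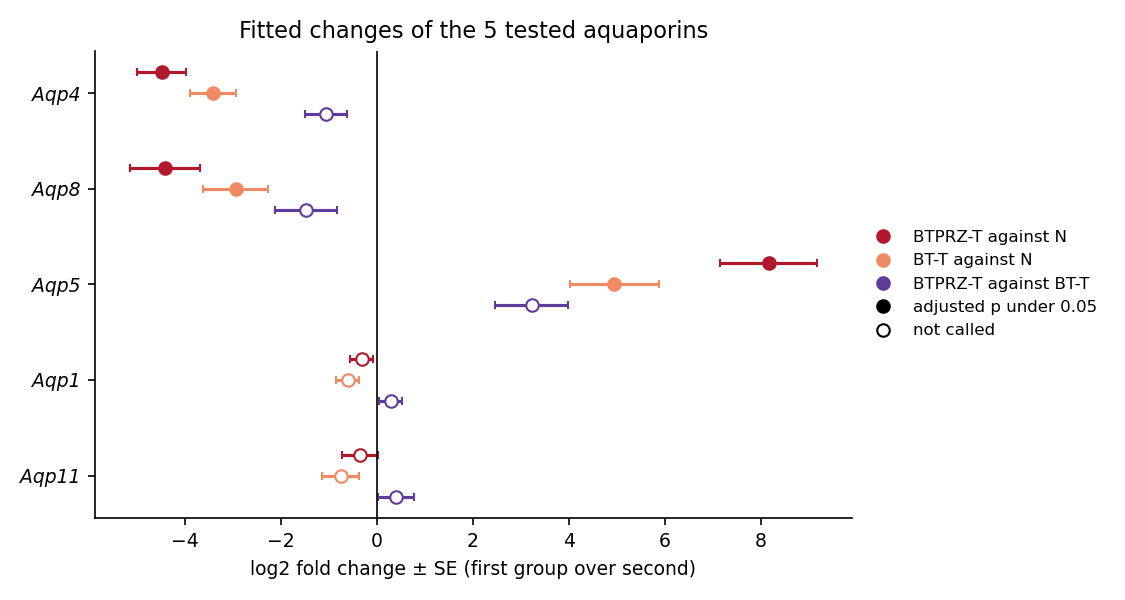
Fitted log2 fold change of each tested aquaporin with its standard error in the 3 comparisons, first group over second, from the edgeR fit over all 12 libraries. Filled points have an adjusted p under 0.05, as Aqp4, Aqp8 and Aqp5 do in both tumour groups against N, and all points of BTPRZ-T against BT-T are open.

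Aqp1, the water channel of vessels and red cells, was read in every library and was called in no comparison. It stood at 114, 116, 158 and 156 CPM in BTPRZ-T replicates 1 to 4. It stood at 87.5, 109.8, 122 and 126 CPM in BT-T replicates 1 to 4, against 140.2, 241, 142 and 154 CPM in N replicates 1 to 4. All BT-T libraries lay below all N libraries, and N replicate 2 stood above the rest. The log2 fold change was -0.32 ± 0.24 in BTPRZ-T against N (adjusted p = 0.466) and -0.60 ± 0.24 in BT-T against N (adjusted p = 0.147). It was 0.29 ± 0.24 in BTPRZ-T against BT-T (adjusted p = 0.539). The value in BT-T against N was -0.32 ± 0.15 without the 3 libraries with the fewest genes (adjusted p = 0.144). With any 1 library left out it was -0.68 to -0.38.

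Endothelial markers are given beside Aqp1. Of 12 tested, 2 rose in BTPRZ-T against N and 5 rose in BT-T against N. Cdh5, the cadherin of endothelial junctions, stood at 120.3 to 265 CPM in BTPRZ-T and 113 to 307 CPM in BT-T, against 19.7 to 36.5 CPM in N. It was 2.50 ± 0.37 higher in BTPRZ-T (adjusted p = 0.00140) and 3.02 ± 0.38 higher in BT-T (adjusted p = 0.000702) on the log2 scale. The 12 markers summed to 425 to 800.4 CPM in BTPRZ-T and 599 to 1066 CPM in BT-T, against 195 to 415 CPM in N. Much of the higher sums is Cdh5, which averaged 169 CPM in BTPRZ-T and 243 CPM in BT-T, against 29.8 CPM in N. The median log2 fold change of the 12 was 0.47 in BTPRZ-T and 1.13 in BT-T. In BTPRZ-T, Kdr (-0.26), Tek (-0.63), Vwf (-0.16) and Cldn5 (-0.87) went the other way without a call. Pecam1 was not called there either (0.53 ± 0.27, adjusted p = 0.258). Of 8 red cell markers, the 5 haemoglobin genes, which are near-identical copies and can lose reads in counting, had 0 reads in every group, and Alas2, the haem enzyme of red cell precursors, had 775 reads in BTPRZ-T and 189 in BT-T, against 80 in N. Without the 3 libraries with the fewest genes, 2 endothelial markers rose and 2 fell in BTPRZ-T, and 8 rose in BT-T. The part of vessels in the Aqp1 reads was not tested.

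Aqp11, the intracellular member, was low and did not pass the test. It stood at 13.7, 9.19, 9.03 and 5.67 CPM in BTPRZ-T replicates 1 to 4. It stood at 6.48, 6.57, 6.20 and 9.22 CPM in BT-T replicates 1 to 4, against 12.7, 14.3, 15.8 and 5.26 CPM in N replicates 1 to 4. The groups overlapped. N replicate 4 stood below every tumour library, and BTPRZ-T replicate 1 stood above N replicate 1. The tumour groups also overlapped with each other. The log2 fold change was -0.36 ± 0.38 in BTPRZ-T against N (adjusted p = 0.627), -0.76 ± 0.38 in BT-T against N (adjusted p = 0.244) and 0.40 ± 0.38 in BTPRZ-T against BT-T (adjusted p = 0.590).

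The 3 aquaglyceroporins had too few reads to be tested. Aqp9, known from liver and from neutrophils, had 0, 6, 0 and 0 reads in BTPRZ-T replicates 1 to 4. It had 16, 21, 24 and 3 reads in BT-T replicates 1 to 4, against 1, 0, 2 and 0 reads in N replicates 1 to 4. Reads per scaled library total were 14.7 times as many in BT-T as in N, with a 95% counting interval of 4.79 to 72.9. BTPRZ-T had 0.113 times the level of BT-T (interval 0.0398 to 0.259). These intervals cover counting error only, since reads are not independent molecules and libraries vary more than counting. The neutrophil markers summed to 46.8 to 92.2 CPM in BTPRZ-T and 32.5 to 145 CPM in BT-T, against 2.83 to 26.3 CPM in N. Of 7 tested, 3 rose in each tumour group against N. Csf3r, the receptor for granulocyte colony-stimulating factor, stood at 7.27 to 30.5 CPM in BTPRZ-T and 10.7 to 37.6 CPM in BT-T, against 0.709 to 2.37 CPM in N. Much of the sum in tumours is Mmp9, with means of 30.6 CPM in BTPRZ-T and 48.4 CPM in BT-T, against 1.99 CPM in N. Cxcr2 overlapped between the groups, at 0.936 to 4.13 CPM in BTPRZ-T and 1.27 to 7.84 CPM in BT-T, against 0.0591 to 4.87 CPM in N. Mmp8 lay below 0 in BTPRZ-T without a call (-0.53 ± 1.46). The part of neutrophils in the Aqp9 reads was not tested.

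Aqp7, the glycerol channel of fat cells, had 2 reads in BTPRZ-T, 8 in BT-T and 9 in N over 4 libraries each. The adipocyte marker Adipoq had 11 reads in BTPRZ-T, all in replicate 1, and 0 in BT-T, against 90 in N. Other adipocyte markers differed from it. Fabp4 had 1707 reads in BTPRZ-T and 1608 in BT-T, against 1628 in N. Cidec had 302 reads in BTPRZ-T and 56 in BT-T, against 254 in N. Of 6 adipocyte markers tested, 2 fell and none rose in each tumour group against N. The part of fat cells in the Aqp7 reads was not tested. Aqp3, which in the colon lies in the basolateral membrane, had 4 reads in BTPRZ-T, 7 in BT-T and 2 in N. A gene with 0 reads in a group could still have stood at up to 0.0387 CPM in BTPRZ-T, 0.0323 CPM in BT-T and 0.0470 CPM in N, the level of 3 reads over the group.

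Outside the 8 genes, Aqp2, the vasopressin-regulated channel of the kidney, had 0, 5, 0 and 0 reads in BTPRZ-T replicates 1 to 4. It had 0, 4, 5 and 14 in BT-T, against 0 in every N library. With N set to 3 reads, the ratio of BT-T to N over the group was 5.27. The 95% counting interval of the ratio to the 0 reads of N began at 3.95. Aqp12, known from pancreatic acinar cells, had 3 reads in BTPRZ-T and 8 in BT-T, against 24 in N. These values are handfuls of reads, and none was tested.

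**Figure D4:**
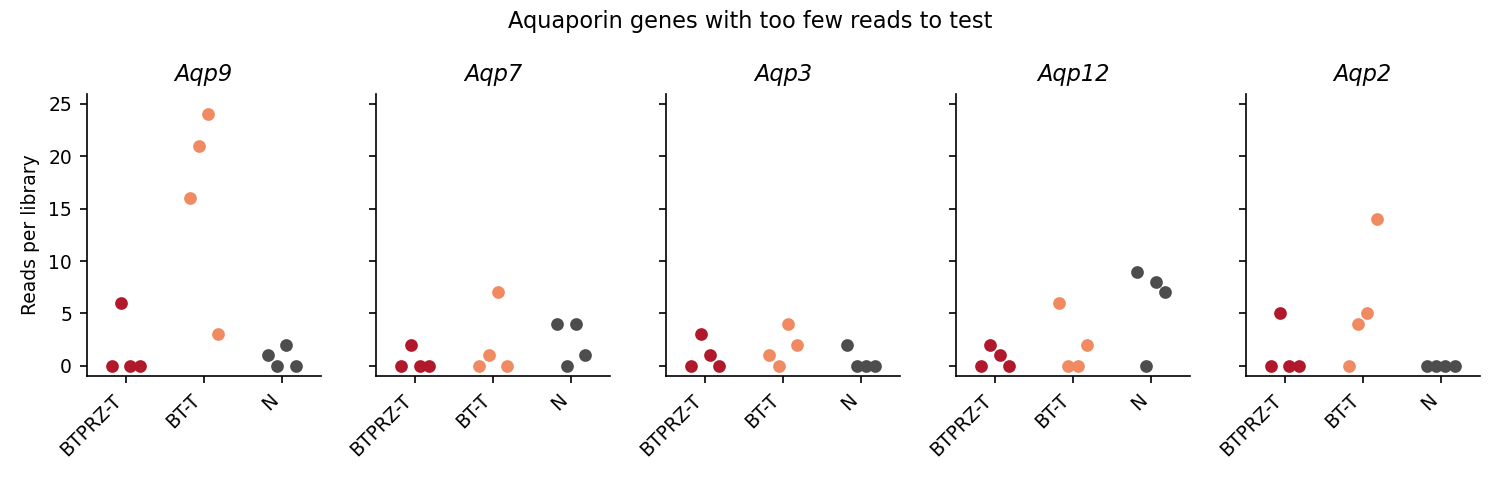
Reads per library of the 5 aquaporin genes with reads that were too few to test, 1 point per library, for BTPRZ-T, BT-T and N. Aqp9 reaches 24 reads in BT-T and no more than 6 elsewhere, and Aqp2 has no read in N.

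The transporters that move salt ahead of water fell in part. Of 22 ion transport genes tested, 5 fell and none rose in BTPRZ-T against N, and 3 fell and none rose in BT-T against N. The median log2 fold change was -0.79 in BTPRZ-T and -0.57 in BT-T, against -0.10 over all genes in each. Slc9a3, the apical sodium-hydrogen exchanger, averaged 6.76 ± 4.25 CPM in BTPRZ-T and 1.15 ± 0.69 CPM in BT-T, against 233 ± 193 CPM in N. It fell by 5.11 on the log2 scale in BTPRZ-T (SE 0.80, adjusted p = 0.00193) and by 7.63 in BT-T (SE 0.91, adjusted p = 0.000562). Slc26a3, the apical chloride-bicarbonate exchanger, was at -4.02 ± 0.56 in BTPRZ-T (adjusted p = 0.00102) and -2.22 ± 0.52 in BT-T (adjusted p = 0.0195). The chloride channel Clcn2 fell in both, and Scnn1a, the alpha subunit of the epithelial sodium channel, in BTPRZ-T (-2.48 ± 0.50, adjusted p = 0.00783). Other subunits of that channel went the other way without a call. Scnn1b was at 0.90 ± 0.39 in BTPRZ-T and 1.07 ± 0.39 in BT-T, and Scnn1g at 1.16 ± 1.17 and 1.49 ± 1.17. The sulfate transporter Slc26a2, named here to complete the count, also fell in BTPRZ-T (adjusted p = 0.0402). The secretory chloride channel Cftr did not pass the test, at -0.31 ± 0.41 in BTPRZ-T (adjusted p = 0.716) and -1.46 ± 0.42 in BT-T (adjusted p = 0.0507). Cftr, Slc26a2, Scnn1b and Scnn1g were chosen for mention after their values were seen. Without N replicate 2, the counts of this list were 10 lower in BTPRZ-T and 7 lower in BT-T, with none higher. Without the 3 libraries with the fewest genes they were 9 lower and 1 higher in BTPRZ-T and 10 lower and 2 higher in BT-T. BTPRZ-T against BT-T, with no call in this list, had 4 lower and 2 higher without N replicate 2. Without the 3 libraries with the fewest genes, that comparison had 2 lower and 6 higher. Over all genes it had 8.23% lower and 9.81% higher without N replicate 2. Without the 3 libraries it had 14.8% lower and 9.71% higher. Calls over all genes rose with these settings too. Without N replicate 2, 15.7% of all genes were lower in BTPRZ-T and 5.70% in BT-T, and without the 3 libraries 16.8% in BTPRZ-T and 12.6% in BT-T. Without the 3 libraries, 18.1% of all genes were higher in BTPRZ-T and 16.1% in BT-T.

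**Figure D5:**
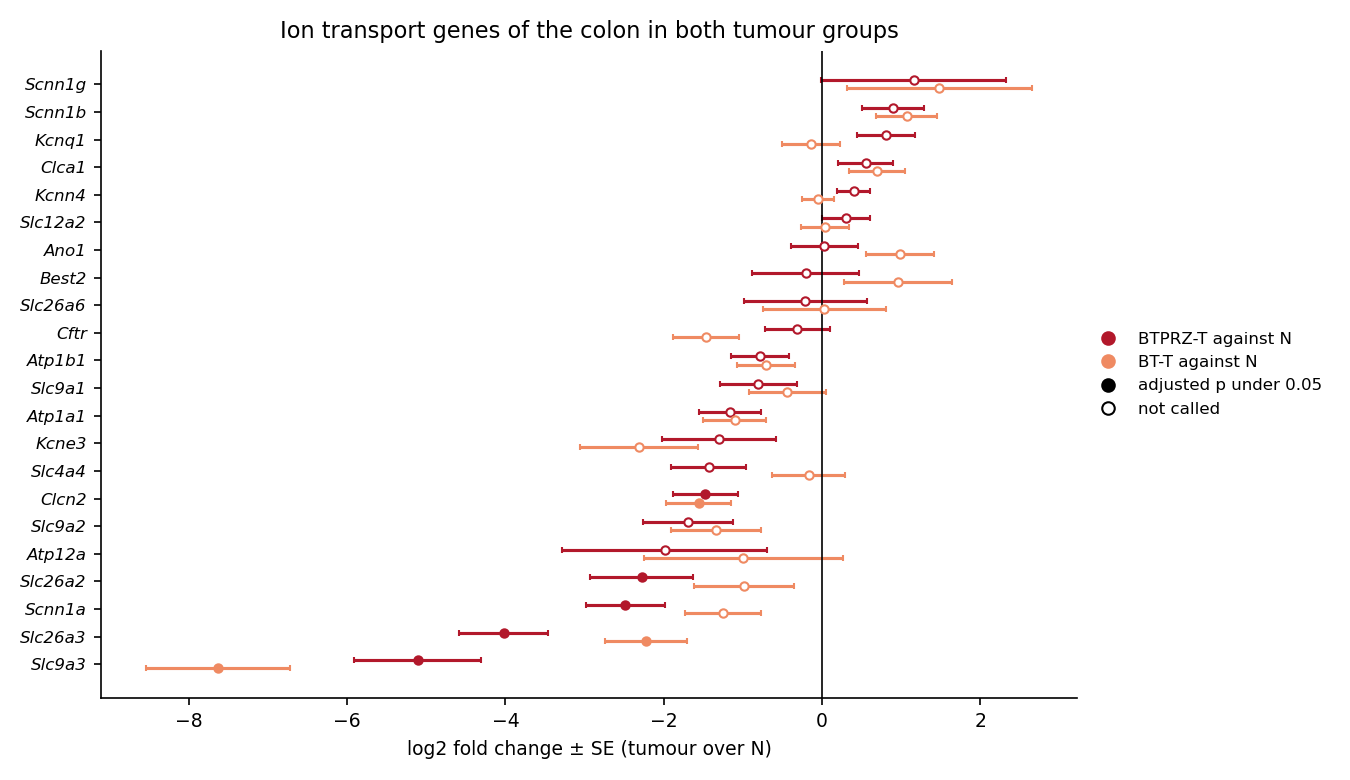
Fitted log2 fold change with its standard error of 22 ion transport genes in BTPRZ-T and in BT-T, each against N. Filled points have an adjusted p under 0.05, 5 in BTPRZ-T and 3 in BT-T, all of them below 0.

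Genes of the osmotic response, of glycerol handling and of vasopressin and cAMP signalling, which controls several water channels, are given for comparison. Of 12 osmotic response genes tested, none was called in BTPRZ-T against N, and 2 fell in BT-T against N. These were the kinases Stk39 (-0.95 ± 0.19, adjusted p = 0.00846) and Sgk1 (-1.80 ± 0.41, adjusted p = 0.0174). Of 11 glycerol handling genes tested, 3 fell in BTPRZ-T and 2 in BT-T. Gpd1l, a glycerol-3-phosphate dehydrogenase, was at -1.07 ± 0.19 in BTPRZ-T (adjusted p = 0.00385) and -0.71 ± 0.19 in BT-T (adjusted p = 0.0395), Dgat1 also fell in both and the lipase Mgll in BTPRZ-T. Of 9 vasopressin and cAMP genes tested, 1 fell in each tumour group, Vipr2, a receptor for vasoactive intestinal peptide, at -1.81 ± 0.39 in BTPRZ-T (adjusted p = 0.0103) and -1.50 ± 0.38 in BT-T (adjusted p = 0.0294). Without N replicate 2, 5 osmotic and 5 glycerol genes fell in BTPRZ-T, and 1 vasopressin and cAMP gene rose in BT-T. Without the 3 libraries with the fewest genes, 2 osmotic genes fell, and 5 glycerol genes fell and 3 rose, in BTPRZ-T. The shares of all genes called under these settings, given above for the ion transport genes, apply here as well. Without N replicate 2, 7.79% of all genes were higher in BT-T against N. None of the 3 lists had a call in BTPRZ-T against BT-T with all libraries.

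The genes most like each aquaporin were taken as the 3 with the smallest root mean square difference in log2 CPM, centred on each gene's mean over the 12 libraries. Nearest to Aqp8 was Slc26a3 at 0.62, followed by Clca3 and by Slc13a2, a dicarboxylate transporter. Nearest to Aqp4 was Grip1 at 0.64, and Hao2, a hydroxyacid oxidase, was also among its 3. Hao2 stood at 25.8 to 121 CPM in BTPRZ-T and 78.2 to 309.8 CPM in BT-T, against 599 to 969 CPM in N. Nearest to Aqp5 was Pax9, a transcription factor of foregut development, at 0.82, followed by Chit1, a chitinase, and Atg9b. Pax9 stood at 14.4 to 35.5 CPM in BTPRZ-T and 0.304 to 9.37 CPM in BT-T, against 0.0576 to 0.270 CPM in N. The choice by likeness over the same libraries fixes that these genes are high where Aqp5 is high. Nearest to Aqp1 were Znrf2, Rundc1 and Cog5 at 0.17 to 0.20, and nearest to Aqp11 were Car13, Fbxo25 and Snx7 at 0.25 to 0.26. These 2 aquaporins vary little themselves, with an SD of 0.36 and 0.56 over the libraries, so many genes lie close to them.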

How the data were processed

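Poly(A) RNA was sequenced with a stranded kit as single reads, per the labels' protocols. Per the submitters' processing notes, the authors used bcl2fastq 2.20, STAR 2.4.2a on mm10, edgeR 3.16.5, limma and HTSeq. The deposited files hold raw read counts per gene, without normalization. Which annotation was counted is not stated in these sources. Counts of the sense strand were taken, and those of the opposite strand came to 0.819 to 0.994% of them.

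Here, genes with too few reads were removed (filterByExpr of edgeR 4.0.16 under R 4.3.3), which left 14860. A quasi-likelihood model with TMM factors and 1 mean per group was fitted to all 12 libraries, and p-values were adjusted over all tested genes by Benjamini-Hochberg. The code was tested on simulated data. SE is the log2 fold change over the root of the F statistic. The aquaporins and all lists were chosen with earlier results of these data known. Up to 4 genes per list and comparison were named by lowest adjusted p, beside a few defining markers. Not every gene so named is reported here. Some further genes were named after their values were seen, where they went another way or made up much of a sum. Same-numbered libraries correlated with r of -0.297 to 0.315 in their deviations from the group means, so replicate numbers were not taken as pairs. Positions and lengths are from GENCODE M21, and RefSeq promoters were matched for 7 of 8 genes. No 2 libraries of a group agreed within sampling noise. Alternatives were RLE and upper quartile factors, 2 other filters, DESeq2 1.42.0, voom of limma 3.58.1 with and without quality weights, unstranded counts, the 2 groups alone, the replicate block, and leaving out libraries.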

Additional observations from a re-analysis of the deposited data

Results flagged for a closer look

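In groups of 4 libraries, 1 library stood far from the other 3 in 3 of 15 groups examined (by Dixon's criterion at the 95% level), where chance gives about 1 in 20 such groups. Aqp1 stood at 241 CPM in N replicate 2, against 140.2 to 154 CPM in the other N libraries. Aqp5 stood at 16.8 CPM in BT-T replicate 3, against 1.42 to 3.36 CPM in the other BT-T libraries. Aqp11 stood at 9.22 CPM in BT-T replicate 4, against 6.20 to 6.57 CPM in the others. Aqp2, which lies outside the 8 genes and was not tested, had 14 reads in BT-T replicate 4 and 0 in every N library.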

How the results depend on the processing

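In BTPRZ-T against N, the same 3 aquaporins (Aqp4, Aqp5 and Aqp8) were called under all 23 alternatives. In BT-T against N, where 3 were called, voom gave 1 and voom with quality weights 5, and leaving out 1 library gave 2 to 3. In BTPRZ-T against BT-T, where 0 were called, the 2 groups alone gave 2, the fit without the 3 libraries with the fewest genes 1, DESeq2 1, voom 1, voom with quality weights 2, and leaving out 1 library 0 to 2. Aqp5 in BT-T against N missed the threshold with voom (adjusted p = 0.149). No aquaporin changed direction in any comparison under any alternative. With the replicate block, 3 aquaporins were called in BTPRZ-T against N, 2 in BT-T against N and 0 in BTPRZ-T against BT-T. The call lost was Aqp8 in BT-T against N (log2 fold change -2.76, adjusted p = 0.0563). Between the tumour groups each library correlated best with its own number, which is a hint from the data and not the design. The causes of these differences were not tested. Over all genes, the fit called 1274 genes in BT-T against N, DESeq2 2418, voom with quality weights 6155, and the fit without the 3 libraries 4359. In BTPRZ-T against N it called 1760, DESeq2 3268, voom with quality weights 8207, the fit without the 3 libraries 5311, the replicate block 1160 and the 2 groups alone 647. In BTPRZ-T against BT-T it called 112, the 2 groups alone 1568, DESeq2 1310, voom 226, voom with quality weights 7732, the fit without the 3 libraries 3723 and the replicate block 1. Leaving out 1 library gave 624 to 2030 in BT-T against N, 1076 to 4855 in BTPRZ-T against N and 0 to 2714 in BTPRZ-T against BT-T, the highest each time without N replicate 2. Counts of listed genes without the libraries that stand apart were added after the data were seen. The low reads of Aqp3, Aqp7 and Aqp9 limit what can be said of them.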
